A study of Mus musculus with 6 samples.

Results

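Homologous recombination and the DNA damage checkpoint were described here through 46 genes, chosen by name for their known roles, among the 11866 genes of the deposited expression table, and all 46 were listed in it. The cells were HCC3-4, a mouse liver tumour line that came from MYC transgenic animals. Poly(A)-captured RNA was sequenced from 3 libraries of cells stably transfected with shSf3b3, a short hairpin RNA against the splicing factor gene Sf3b3 (KD), and 3 libraries of cells with the pLKO.1-TRC negative control vector (PLKO). The MYC background and the vector backbone are shared by both groups, and the comparison asks which of these transcripts differ between KD and PLKO cells. The labels name no second hairpin and do not say whether a transfected population was a single clone. Libraries were not stated to be separate cultures, so the spread between them may be technical.

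Double-strand breaks are mended either by end joining, in which the Ku heterodimer caps the ends and they are ligated, or by homologous recombination, which copies the sister chromatid in S and G2 phase. For recombination the MRE11-RAD50-NBN complex and its partners trim the ends, and BRCA1, PALB2 and BRCA2 prepare the exposed strand for pairing with the sister. The Fanconi pathway unhooks crosslinks between strands through ubiquitination of FANCI and FANCD2, and the kinases ATM and ATR signal damage to CHEK2 and CHEK1. Cells driven by MYC replicate under stress and are known to lean on ATR and CHEK1.

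Reads on the listed genes came to between 15140441 and 17566101 per library. Levels are given as FPKM, fragments scaled by exonic length and library size, and fold changes as log2, KD minus PLKO. A gene was called when limma, fitted over the 10770 genes whose mean was 1 FPKM or more, gave a Benjamini-Hochberg adjusted p under 0.05. Sf3b3 itself averaged 11.3 ± 2.33 FPKM in KD and 26.9 ± 3.67 FPKM in PLKO (SD, n = 3 each), a log2 fold change of -1.26 (adjusted p = 0.037). KD 3 and PLKO 3 deviated from their group means in the same way, with a correlation of 0.50. With PLKO 1 and PLKO 2 the deviations of KD 3 correlated at -0.28 and -0.38. The 3 deviations of a group sum to 0 for each gene, so these negative values as a set follow from the positive one. Of the hepatocyte markers looked for, among them Alb, Ttr and Hnf4a, 0 of 8 were in the table. Of the liver tumour and epithelial markers 5 of 9 were listed, with a summed level of 115.8, 149.0 and 157.5 FPKM in KD, against 147.6, 140.3 and 131.2 FPKM in PLKO. Among these Afp and Krt18 were higher in every KD library than in any PLKO library, at 1.98, 1.42 and 0.814 FPKM in KD against 0.396, 0.302 and 0.467 FPKM in PLKO for Afp and 8.41, 9.31 and 9.60 FPKM in KD against 6.62, 5.95 and 5.27 FPKM in PLKO for Krt18, while Krt8, Krt19 and Sox9 overlapped. Of the fibroblast markers 5 of 7 were listed. Their summed level was 52.9, 66.6 and 75.7 FPKM in KD, against 106.4, 102.8 and 156.6 FPKM in PLKO, without overlap. Col1a1, Col1a2, Col3a1 and Pdgfrb were lower in every KD library than in any PLKO library. Pdgfra overlapped, at 13.2, 13.4 and 9.21 FPKM in KD, against 11.8, 5.98 and 12.2 FPKM in PLKO (log2 fold change 0.31). Of the leukocyte markers 1 of 8 was listed, Cd68, at 69.7, 95.02 and 44.4 FPKM in KD, against 19.5, 42.1 and 9.19 FPKM in PLKO, and of the endothelial markers 0 of 5. The part of these markers in the results was not tested.

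The repair and checkpoint genes did not move in a single direction. Xrcc6, the Ku70 subunit of end joining, was the 1 member of 45 tested that was called, and it was lower in KD. Of all tested genes 2.92% were called, 1.12% higher and 1.79% lower. Libraries were also paired by replicate number, a pairing taken from correlations in these data and not from a label. KD 1 correlated at 0.18 with PLKO 1 but at 0.30 with PLKO 2, and KD 2 at 0.29 with PLKO 2 and 0.27 with PLKO 1. Blocking on the replicate number, which compares KD and PLKO libraries of equal number (adjusted p of limma again under 0.05), called 9 members: Rad52, Exo1, Msh6, Nbn and Brca1 higher, and Xrcc6, Xrcc5, Rad51b and H2afx lower. That is 20% of the members, beside 19.3% of all tested genes (8.19% higher, 11.1% lower), so the number of members called lay close to the background. The median log2 fold change over the members was -0.18, 18 lying above 0 and 27 below, against -0.04 for all tested genes, of which 47.7% were above 0. KD and PLKO values did not overlap for 11 members, 2 higher and 9 lower in KD, a share of 24.4% against 32.1% over the table (13.4% higher, 18.8% lower). Fancc, a subunit of the Fanconi core, averaged 0.739 FPKM in KD and 0.948 FPKM in PLKO and was too low to be tested. Member reads per library ran from 32, for Palb2 in PLKO 3, to 3960, for Topbp1 in KD 1. Read counts of Rbbp8 and Msh6 rest on a length searched for. Less transcript per cell and fewer cells that carry it cannot be told apart in such bulk RNA.

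**Figure D1:**
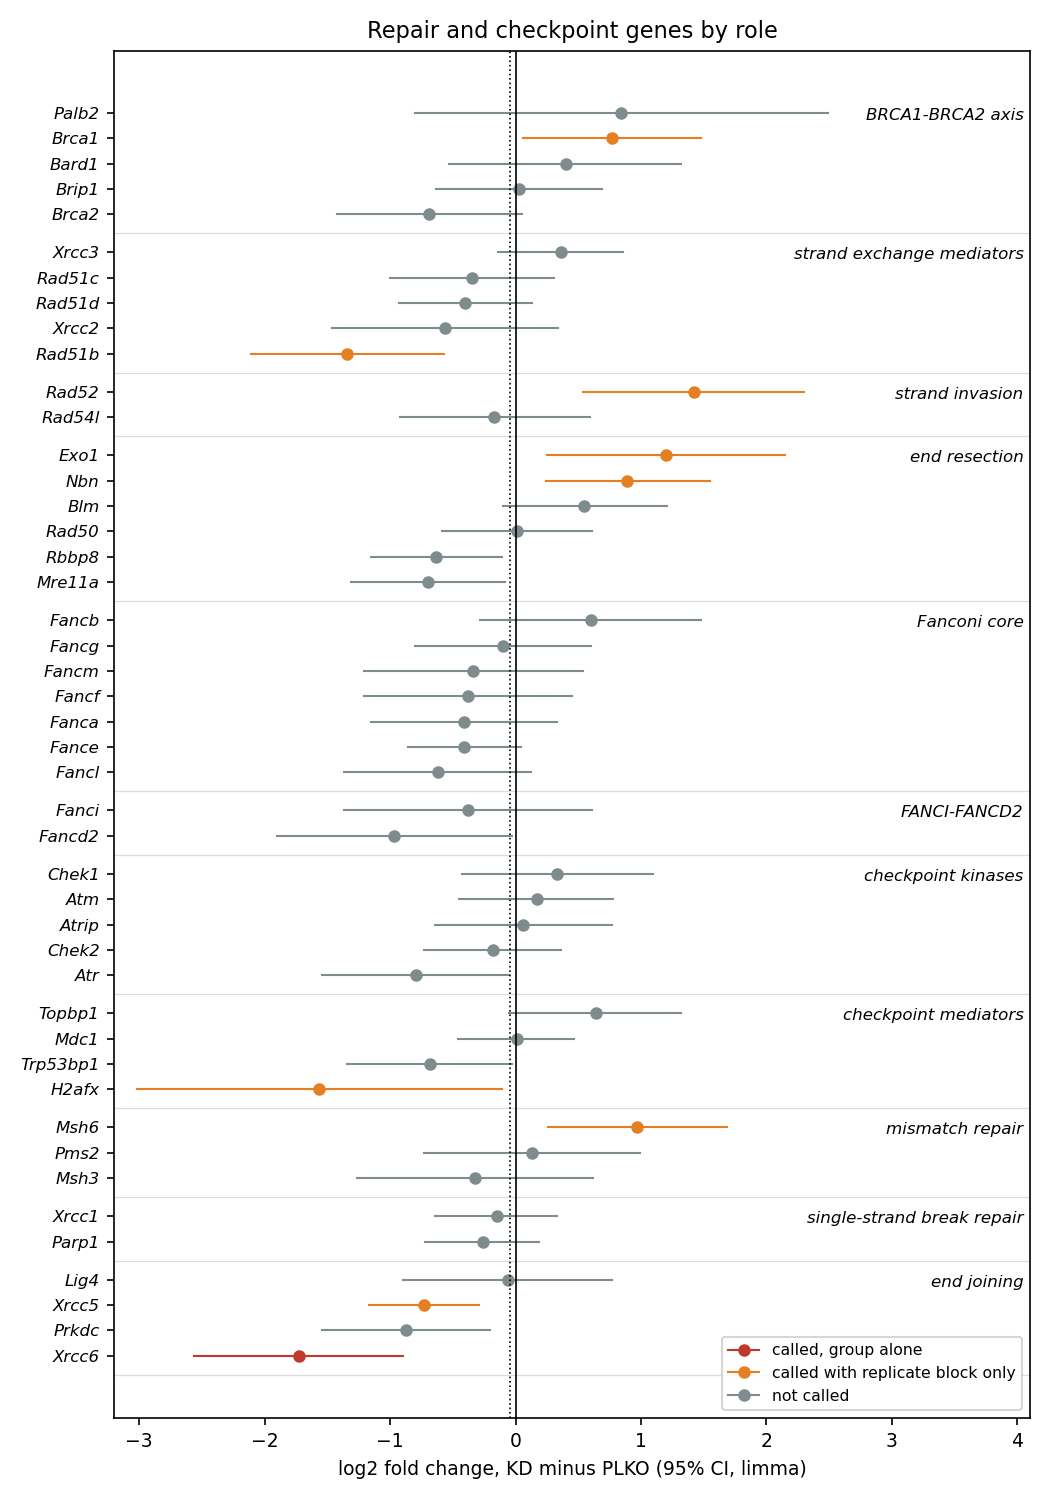
Log2 fold change, KD minus PLKO, of the 45 tested members by role, with 95% confidence intervals from limma; red marks the gene called with the group alone, orange those called with the replicate block only, and the dotted line the median of all tested genes, -0.04. Xrcc6 lies farthest to the left at -1.73 and Rad52 farthest to the right at 1.42, and all 4 end joining genes lie left of 0.

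The calls depended on single libraries. Without KD 1, KD 2, PLKO 1 or PLKO 2, limma called 0 members and 0 genes of the table, with 7, 8, 10 and 13 members at an unadjusted p under 0.05 (15.6%, 17.8%, 22.2% and 28.9% of them, beside 16.9%, 16.6%, 20.6% and 21.5% of all tested genes). Without KD 3 it called 10 members (16.2% of the table), and without PLKO 3 only Xrcc6 (7.44% of the table). Without both libraries numbered 3 it called 14 members, 4 higher and 10 lower, beside 27.9% of all tested genes. Of the 9 members above, Brca1 was not called in that fit, and Xrcc2, Mre11a, Fancd2, Atr, Trp53bp1 and Prkdc were called lower in addition.

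End joining held the clearest difference. Xrcc6, whose product Ku70 binds broken ends, had 6.65, 6.97 and 10.9 FPKM in KD 1, 2 and 3, against 20.4, 46.95 and 19.1 FPKM in PLKO 1, 2 and 3. Every KD library lay below every PLKO library, and PLKO 2 stood far above the other two. The log2 fold change was -1.73 (SE 0.37, adjusted p = 0.047, and 0.0048 with the replicate block), on 458 to 854 reads in KD and 1353 to 3512 reads in PLKO. Leaving out PLKO 2 gave -1.31 (adjusted p = 0.13), while leaving out KD 1, KD 2 or PLKO 1 gave an adjusted p of 0.18, 0.19 and 0.13. Xrcc6 (ENSMUSG00000022471.14, chr15:81987835-82040085, plus strand, GRCm38) shares 344 exonic bases, 7.69% of its exonic length, with Desi1 on the opposite strand. Reads of the pair cannot be told apart where they overlap unless strand was used, and Desi1 had a log2 fold change of -0.33 (adjusted p = 0.54).

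Xrcc5, which encodes Ku80, the partner of Ku70 in the heterodimer, had 16.7, 20.4 and 21.8 FPKM in KD, against 34.4, 31.3 and 31.5 FPKM in PLKO. The groups were apart and each was tight, with a coefficient of variation of 13.3% in KD and 5.43% in PLKO. The log2 fold change of -0.73 (SE 0.20) had an adjusted p of 0.066, and of 0.036 with the replicate block. Prkdc, the catalytic subunit of the DNA-dependent protein kinase that Ku recruits, had 1.47, 1.31 and 1.91 FPKM in KD, against 2.96, 2.63 and 2.86 FPKM in PLKO. Its groups did not overlap either, with a log2 fold change of -0.87 (adjusted p = 0.105, and 0.060 with the block). Lig4, the ligase that seals the ends, differed little beside its spread, at 2.68 ± 0.830 FPKM in KD and 2.80 ± 0.860 FPKM in PLKO (SD, n = 3 each), with a 95% confidence interval of the log2 fold change from -0.90 to 0.77. The median of the 4 genes was -0.80.

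**Figure D2:**
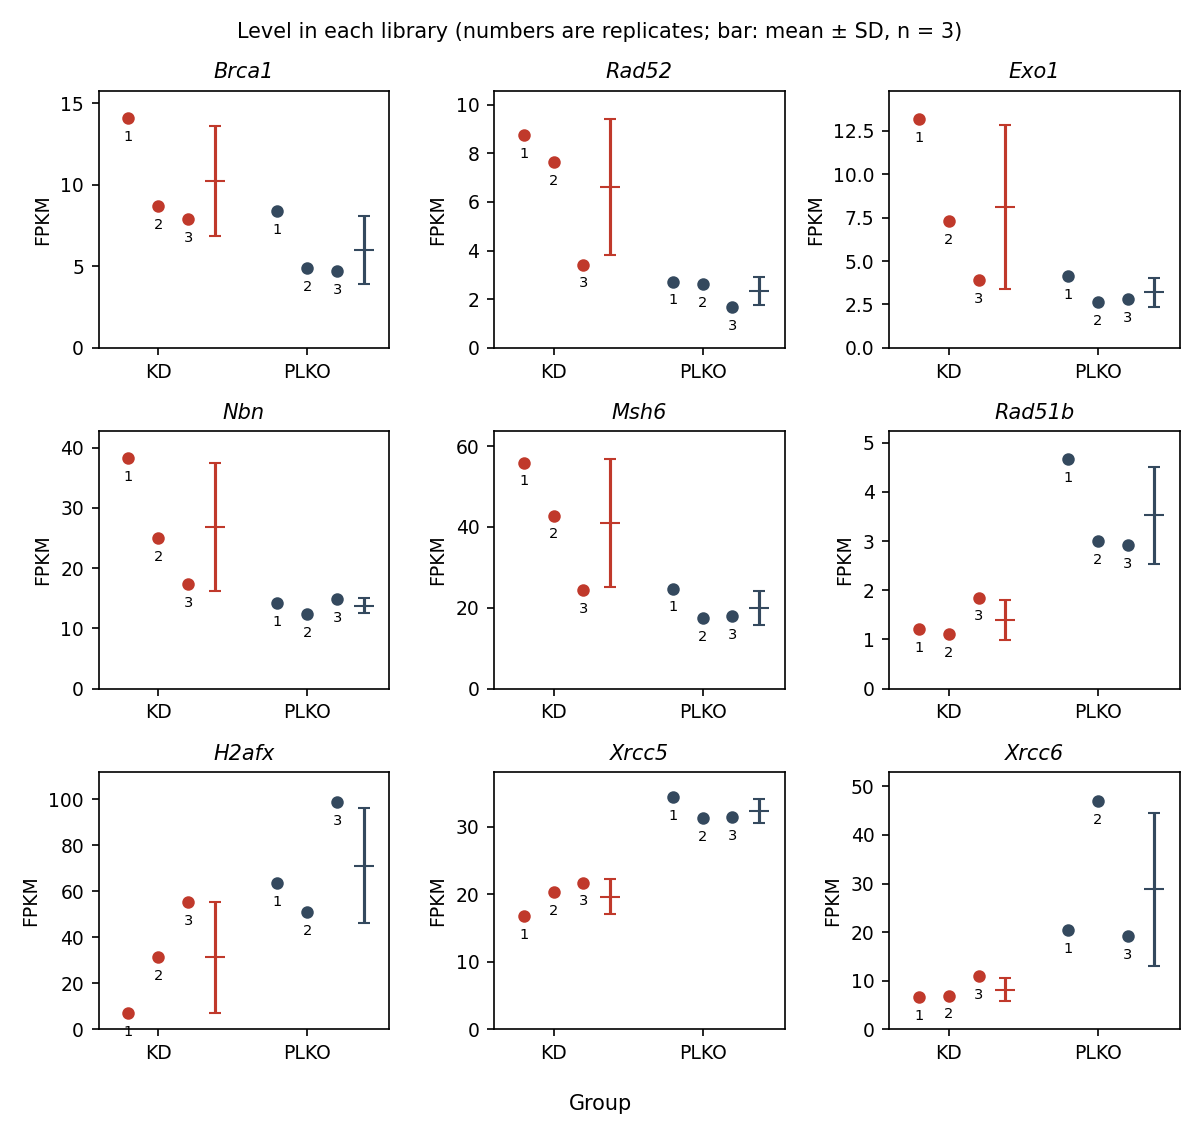
FPKM of the 9 members called in either fit, KD left and PLKO right, with each point a library and its replicate number, and bars for the mean ± SD (n = 3). Xrcc5, Xrcc6 and Rad51b lie lower and Rad52 and Nbn higher in every KD library than in any PLKO library, while Brca1, Exo1, Msh6 and H2afx overlap between the groups.

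Among genes of recombination proper, Rad52 and Rad51b stood out in opposite directions. Rad52 encodes a strand-annealing protein. It had 8.74, 7.66 and 3.43 FPKM in KD, against 2.73, 2.62 and 1.67 FPKM in PLKO. All KD libraries were above all PLKO libraries, with KD 3 and PLKO 3 each the lowest of its group. KD exceeded PLKO by 1.42 on the log2 scale (SE 0.39, adjusted p = 0.069, and 0.0051 with the block). Rad54l, a motor protein of strand invasion, had a log2 fold change of -0.17 (interval -0.92 to 0.59).

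The related genes Rad51b, Rad51c, Rad51d, Xrcc2 and Xrcc3, whose products work together as mediators of strand exchange, had a median of -0.40 with 4 of 5 below 0. Rad51b had 1.22, 1.11 and 1.85 FPKM in KD, against 4.66, 2.99 and 2.92 FPKM in PLKO, on 64 to 120 reads in KD and 172 to 315 reads in PLKO. The groups were apart, and the log2 fold change was -1.34 (SE 0.34, adjusted p = 0.062, and 0.016 with the block). Rad51d was also lower in each KD library, but KD 3 and PLKO 3 were nearly equal at 4.741 and 4.743 FPKM. Xrcc3 was the 1 of them above 0, at 7.10 ± 0.804 FPKM in KD and 5.54 ± 0.736 FPKM in PLKO (SD, n = 3 each), and Rad51c and Xrcc2 had log2 fold changes of -0.35 and -0.56. None of these 4 was called in either fit.

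In the BRCA1-BRCA2 axis 4 of 5 genes were above 0, with a median of 0.40, and none was called with the group alone. Brca1, the ubiquitin ligase that favours resection, had 14.1, 8.69 and 7.91 FPKM in KD, against 8.41, 4.91 and 4.71 FPKM in PLKO. The groups overlapped because PLKO 1 was above KD 3, and library 1 was the highest of both groups. The log2 fold change of 0.77 (SE 0.31) had an adjusted p of 0.15, and of 0.028 with the block, which takes out differences shared by libraries of the same number. Its partner Bard1 had a log2 fold change of 0.40 and the helicase gene Brip1 of 0.03. Palb2, the bridge between BRCA1 and BRCA2, had 2.80, 1.56 and 0.699 FPKM in KD, against 1.60, 1.13 and 0.292 FPKM in PLKO, with wide overlap and a log2 fold change of 0.84 (SE 0.73, adjusted p = 0.47). Leaving out PLKO 3, with 32 reads of Palb2, gave 0.11, and leaving out KD 3 gave 1.37. Brca2, which prepares the resected strand for exchange, was the 1 gene of the axis below 0, at 2.62 ± 0.647 FPKM in KD and 4.29 ± 1.45 FPKM in PLKO (SD, n = 3 each; log2 fold change -0.69, adjusted p = 0.20).

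End resection genes split. Exo1, a nuclease of long-range resection, had 13.2, 7.28 and 3.90 FPKM in KD, against 4.13, 2.64 and 2.80 FPKM in PLKO. KD 3 lay within the PLKO range, and KD 1 was the highest of all. The log2 fold change was 1.20 (SE 0.42, adjusted p = 0.11, and 0.013 with the block). Nbn, the subunit that brings ATM to the break, had 38.3, 25.1 and 17.3 FPKM in KD, against 14.2, 12.4 and 14.8 FPKM in PLKO, with no overlap and a log2 fold change of 0.89 (SE 0.29, adjusted p = 0.095, and 0.030 with the block). Its partner Mre11a, the nuclease of the same complex, was lower in every KD library, at 7.88 ± 1.11 FPKM in KD and 13.2 ± 4.38 FPKM in PLKO (SD, n = 3 each; log2 fold change -0.70, adjusted p = 0.14). Rad50, the third partner, had a log2 fold change of 0.01 with an interval from -0.59 to 0.61. Rbbp8, which encodes the resection factor CtIP, was lower in every KD library too (log2 fold change -0.63, adjusted p = 0.13), and the helicase gene Blm had a log2 fold change of 0.55 (adjusted p = 0.24).

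Partners of a complex were also compared with each other, since their ratio within a library does not depend on how libraries were scaled. These pairs were chosen with the values known and are given without a test. The ratio of Nbn to Mre11a was 4.89, 3.68 and 1.92 in KD, against 1.16, 0.692 and 1.59 in PLKO, and the groups did not overlap. For Xrcc6 to Xrcc5 it was 0.397, 0.341 and 0.501 in KD, against 0.594, 1.50 and 0.607 in PLKO, again without overlap. The ratios of Nbn to Rad50, Mre11a to Rad50, Brca1 to Bard1 and Fancd2 to Fanci overlapped between the groups.

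**Figure D3:**
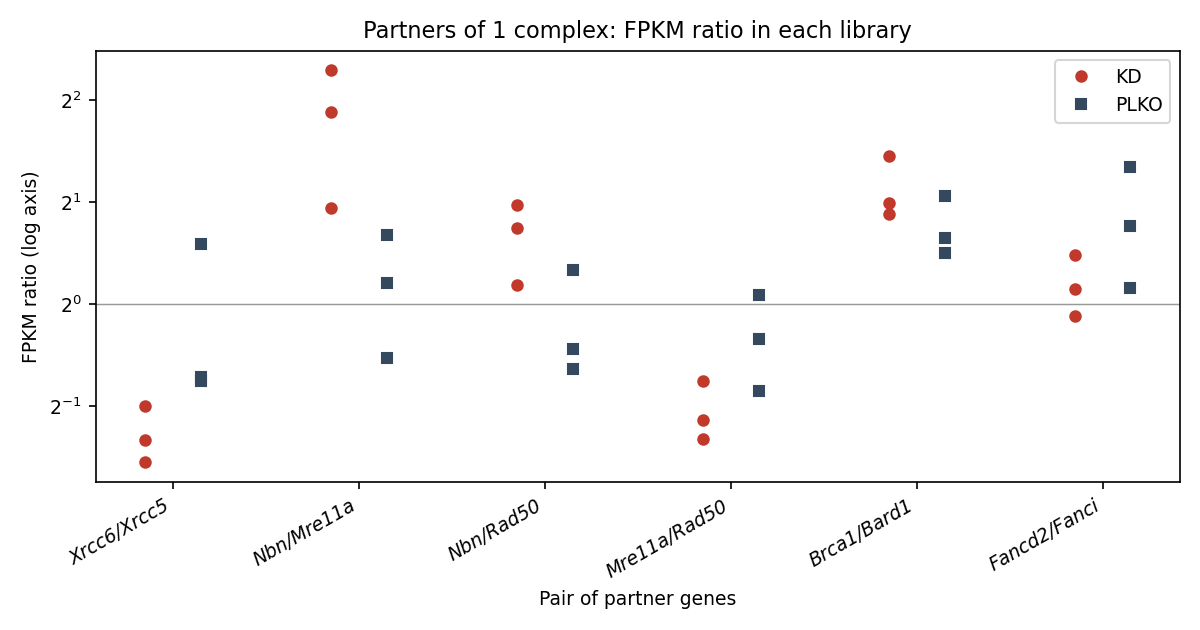
Ratio of FPKM between partners of a complex in each library on a log axis, KD circles left and PLKO squares right. Nbn/Mre11a is higher and Xrcc6/Xrcc5 is lower in every KD library than in any PLKO library, and the other 4 ratios overlap.

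Fanconi genes were mostly below 0 and none was called in either fit. Of the 7 tested core genes, whose products form the ubiquitin ligase for FANCD2, 6 were below 0, with a median of -0.38. Fancl, the catalytic subunit, had 2.34, 2.62 and 2.11 FPKM in KD, against 5.08, 2.36 and 3.93 FPKM in PLKO. PLKO 2 lay among the KD libraries, and the log2 fold change was -0.62 (SE 0.33, adjusted p = 0.25). Fance was lower in every KD library, at 8.73 ± 0.409 FPKM in KD and 11.6 ± 1.26 FPKM in PLKO (SD, n = 3 each; log2 fold change -0.41, adjusted p = 0.22). Fanca, Fancf, Fancg and Fancm had log2 fold changes from -0.41 to -0.10, and Fancb, on the X chromosome, was the 1 above 0 (0.60, adjusted p = 0.34). The substrate gene Fancd2 had 1.74, 1.32 and 3.15 FPKM in KD, against 5.94, 3.01 and 3.02 FPKM in PLKO. KD 3 lay above PLKO 2 and PLKO 3, and the log2 fold change of -0.97 (SE 0.41) had an adjusted p of 0.17, and of 0.018 without both libraries numbered 3. Its partner Fanci had a log2 fold change of -0.38 (interval -1.37 to 0.61). Opposite-strand genes of the table overlap exons of Fanca, Fancf, Fancl and Fanci by 10.5% to 16% of their exonic length. For Fancf this gene is Gas2, with a log2 fold change of 0.81. Such overlap is not limited to Fanconi genes, and 11 members share exonic bases with a listed gene. Rad54l shares 15.4% with Lrrc41 (log2 fold change 0.81) and Trp53bp1 15% with Tubgcp4 (0.15). Atrip shares 16% with Trex1, an unlisted gene on the same strand.

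None of the 5 genes of the checkpoint kinases and their partner Atrip was called in either fit. Atr, the kinase that answers stalled forks, had 1.25, 0.967 and 1.42 FPKM in KD, against 2.08, 2.30 and 1.87 FPKM in PLKO. The groups were apart, with a log2 fold change of -0.79 (SE 0.33), but it was not called (adjusted p = 0.16, and 0.12 with the block). Atrip, which holds ATR at single-stranded DNA, had a log2 fold change of 0.06, and Chek1 and Chek2, the downstream kinases, of 0.33 and -0.18, with intervals from -0.43 to 1.10 and from -0.73 to 0.36. Atm, the kinase that answers double-strand breaks, had 4.55 ± 1.29 FPKM in KD and 3.96 ± 0.312 FPKM in PLKO (SD, n = 3 each), a log2 fold change of 0.17 (interval -0.45 to 0.78). The level of Chek1 was 16.9, 9.63 and 7.07 FPKM in KD, against 10.9, 7.07 and 7.45 FPKM in PLKO, so that library 1 was the highest of both groups, as for Brca1.

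H2afx encodes the histone variant that ATM and ATR phosphorylate around breaks, and it varied more than any other member in KD. It had 7.14, 31.4 and 55.3 FPKM in KD, against 63.6, 51.1 and 99.0 FPKM in PLKO. KD 3 lay above PLKO 2, and KD 1 was far below the rest, on 151 reads. The log2 fold change was -1.57 (SE 0.64, adjusted p = 0.16, and 0.016 with the block), -0.72 without KD 1 and -2.19 without KD 3 (adjusted p = 0.043). The gene has 1 exon and resembles other H2A genes, with which it can share reads. Trp53bp1, which shields ends from resection, had a log2 fold change of -0.68 (adjusted p = 0.17), Topbp1, an activator of ATR, of 0.64 (adjusted p = 0.21), and Mdc1, which reads phosphorylated H2AX, of 0.01 (interval -0.46 to 0.47).

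Msh6 led mismatch repair. This gene of the sensor of base mismatches had 55.9, 42.8 and 24.3 FPKM in KD, against 24.8, 17.4 and 17.9 FPKM in PLKO. KD 3 was just below PLKO 1, and the other KD libraries were well above. KD exceeded PLKO by 0.97 on the log2 scale (SE 0.31, adjusted p = 0.094, and 0.016 with the block). Msh3, which senses larger loops, and Pms2, part of the downstream endonuclease, had log2 fold changes of -0.32 and 0.13. Of single-strand break repair, Parp1, the sensor of nicks, had 27.6, 22.3 and 25.3 FPKM in KD, against 27.3, 35.0 and 28.0 FPKM in PLKO, overlapping through KD 1 (log2 fold change -0.26, SE 0.20, adjusted p = 0.42). The scaffold gene Xrcc1 had a log2 fold change of -0.15 (interval -0.64 to 0.33).

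**Figure D4:**
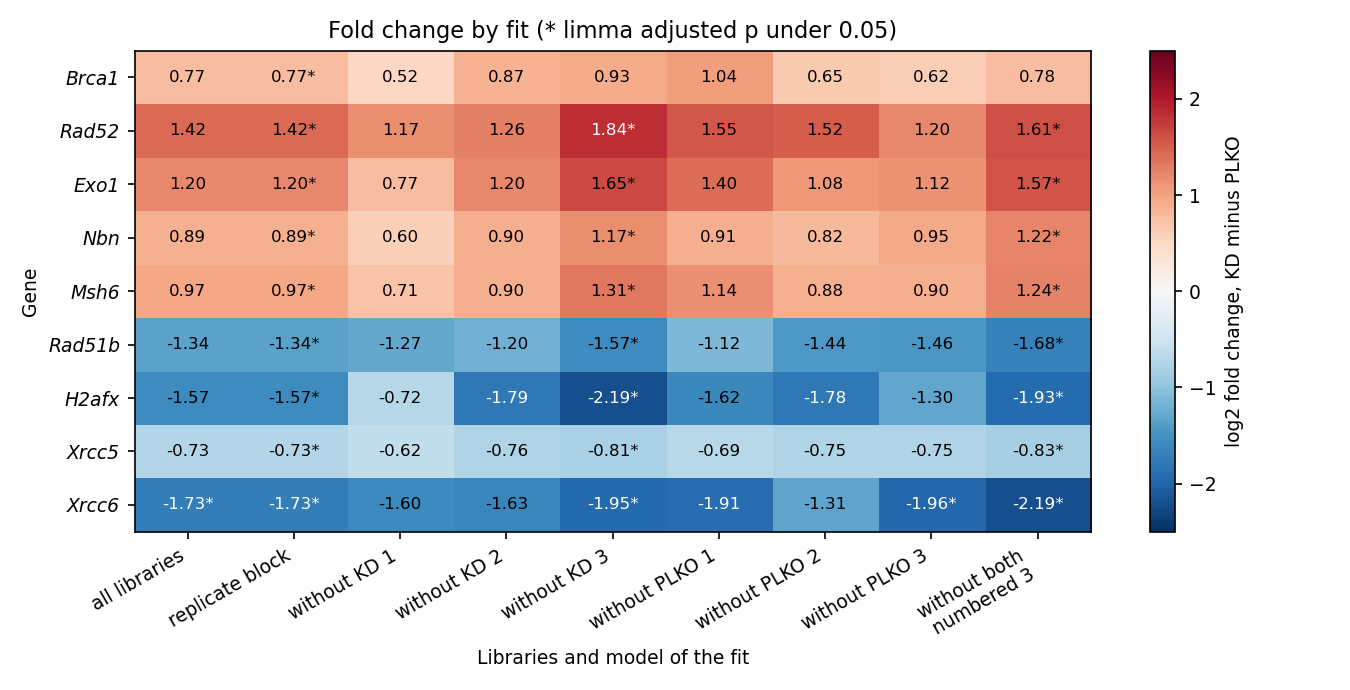
Log2 fold change, KD minus PLKO, of the 9 members called in either fit, by the libraries and model of the fit, with a star where adjusted p is under 0.05. The sign holds in each fit shown, from 0.52 to 1.04 for Brca1 and from -2.19 to -1.31 for Xrcc6, and no gene is called without KD 1, KD 2, PLKO 1 or PLKO 2.

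Other genes of the same pathways, 105 of them tested, had a median log2 fold change of -0.15. Of these 3 were called, all lower, while 2.92% of all tested genes were called. The block called 6 higher and 18 lower, which is 22.9% of them, beside 19.3% of all tested genes. Mcm8, a helicase of recombination, had 4.16, 3.34 and 3.39 FPKM in KD, against 12.2, 11.1 and 8.09 FPKM in PLKO (log2 fold change -1.52, limma adjusted p = 0.031). Tdp1, which removes stalled topoisomerase, had 1.53, 2.17 and 3.29 FPKM in KD, against 6.02, 6.72 and 6.67 FPKM in PLKO, without overlap (log2 fold change -1.54, limma adjusted p = 0.044). Tdp1 belongs to base excision and single-strand break repair, where 16 of 21 tested genes were below 0 with a median of -0.38, and where Ogg1, the glycosylase for oxidised guanine, had a log2 fold change of -1.36 (adjusted p = 0.059, and 0.0055 with the block).

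Of the other end joining genes, 5 of 7 were below 0 with a median of -0.54. With the block 3 were called lower, 42.9% of them beside 19.3% of all tested genes. Log2 fold changes for Nhej1, Paxx and Lig3 were -1.28, -0.71 and -0.81 (adjusted p = 0.014, 0.044 and 0.035 with the block, and 0.058, 0.076 and 0.090 with the group alone). Nhej1 rests on 19 to 37 reads in KD and 62 to 68 reads in PLKO. Of 33 other recombination genes, 16 were above 0 and the block called 2 higher and 9 lower (33.3%, beside 19.3% of all tested genes). Mus81, a nuclease of joint molecules, and Babam2, of the BRCA1-A complex, stood at -1.40 and -1.13 on the log2 scale (adjusted p = 0.012 for both with the block). The highest fold change of the list was that of Dna2, a resection nuclease like EXO1, at 1.95 (adjusted p = 0.076, and 0.0071 with the block).

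Among 28 other checkpoint genes 18 were above 0 and none was called with the group alone. The block called 4 higher and 1 lower, 17.9% of them beside 19.3% of all tested genes, so their number lay close to the background. Etaa1, an activator of ATR, and Cdc25a, the phosphatase that CHEK1 restrains, stood at 1.56 and 1.28 on the log2 scale (adjusted p = 0.0026 and 0.019 with the block), and Cdc25c had -0.79 (0.032 with the block). Of 12 other Fanconi genes Faap24, which helps FANCM bind DNA, was the 1 called with the block (log2 fold change -1.61, adjusted p = 0.0043). That is 8.33% of them, beside 19.3% of all tested genes. By adjusted p Cenpx and Usp1 followed at -0.63 and -0.59, while Ube2t stood at 0.67, and 5 of the 12 were above 0 and 7 below. Of the 4 other mismatch repair genes none was called in either fit, and Mlh3 stood at -0.73 on the log2 scale (adjusted p = 0.18).

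Many recombination genes are transcribed mostly in S phase, and a list of genes of S phase and G2/M was therefore set beside the members. Of 33 such genes 24 were above 0, with a median of 0.61. E2f7, a repressor among the E2F factors, was the 1 called (log2 fold change 1.52, adjusted p = 0.043), while 2.92% of all tested genes were called. With the block 12 were called higher and 1 lower, 39.4% of the list beside 19.3% of all tested genes. Mcm3 and Pcna, of the replication fork, stood at 1.76 and 1.05 on the log2 scale (adjusted p = 0.066 and 0.081). The summed level of the list was 1561, 1228 and 826.5 FPKM in KD, against 950.5, 605.4 and 726.9 FPKM in PLKO. KD 1 and KD 2 were highest, as for Rad52, Exo1, Nbn, Msh6 and Brca1, and KD 3 lay below PLKO 1. The part of cell cycle phase in these members was not tested.

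The members are long genes with many exons, with a median of 16 exons in the longest transcript against 9 over all tested genes, and 86 for Prkdc. Across the 45 members Spearman's rho of the fold change was -0.17 with exon number and -0.02 with exonic length, and across 10709 tested genes with an annotation it was -0.07 and 0.08. These values are across genes, which are not independent replicates. The 2 members with a single exon, H2afx and Fancf, had log2 fold changes of -1.57 and -0.38.

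Promoter sequences were taken from RefSeq on GRCm38.p6 for the windows from 250 bases before to 50 bases after the start. Of the 46 members 37 had a window. Shown are the Ku pair, both lower in KD, and Rad52 and Msh6, both higher with the block. The capitals mark every match, on either strand, to E2F letters (TTTCGCGC or any of its variants TTTGGCGC and also TTTCCCGC and also TTTGCCGC), to the E-box (which reads CACGTG), to the CCAAT box (which reads CCAAT), to the GC box (which reads GGGCGG) or to the NRF1 motif, and neighbouring GC boxes run together in Msh6. The windows are chr15:82016119-82016418 for Xrcc6, chr1:72307171-72307470 for Xrcc5, chr6:119902448-119902747 for Rad52 and chr17:87974800-87975099 for Msh6, all on the plus strand, and the RefSeq start of Xrcc6 lies inside the longer GENCODE gene given above.
Xrcc6 promoter: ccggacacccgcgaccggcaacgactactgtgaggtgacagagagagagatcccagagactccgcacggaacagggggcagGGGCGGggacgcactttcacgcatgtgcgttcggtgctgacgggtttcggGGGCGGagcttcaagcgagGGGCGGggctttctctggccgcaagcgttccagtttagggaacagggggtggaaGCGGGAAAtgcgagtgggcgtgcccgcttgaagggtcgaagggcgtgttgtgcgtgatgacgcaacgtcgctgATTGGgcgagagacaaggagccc
Xrcc5 promoter: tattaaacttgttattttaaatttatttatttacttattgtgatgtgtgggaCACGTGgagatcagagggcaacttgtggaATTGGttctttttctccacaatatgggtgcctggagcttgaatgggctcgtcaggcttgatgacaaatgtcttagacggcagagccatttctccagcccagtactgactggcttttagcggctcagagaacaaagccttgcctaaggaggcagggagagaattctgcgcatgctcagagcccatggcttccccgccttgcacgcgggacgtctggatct
Rad52 promoter: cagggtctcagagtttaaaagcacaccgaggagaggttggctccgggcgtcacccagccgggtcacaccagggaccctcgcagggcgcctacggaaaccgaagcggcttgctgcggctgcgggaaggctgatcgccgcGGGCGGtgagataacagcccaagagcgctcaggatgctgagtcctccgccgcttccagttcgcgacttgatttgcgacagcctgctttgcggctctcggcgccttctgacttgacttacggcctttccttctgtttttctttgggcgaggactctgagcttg
Msh6 promoter: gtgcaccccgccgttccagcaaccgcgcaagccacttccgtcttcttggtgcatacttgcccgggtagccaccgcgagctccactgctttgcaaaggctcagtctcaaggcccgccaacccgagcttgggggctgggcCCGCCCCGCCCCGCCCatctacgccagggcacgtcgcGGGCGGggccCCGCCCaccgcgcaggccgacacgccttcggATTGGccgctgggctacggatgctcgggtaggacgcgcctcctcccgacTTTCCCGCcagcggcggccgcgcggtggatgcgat

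Xrcc6 and Msh6, which lie on opposite sides of 0, both held E2F letters, starting at -46 and 16 from the start, together with CCAAT and GC boxes. Xrcc5 held an E-box at -198 and no GC box, and Rad52 a single GC box. E2F letters were in 10 of 37 member windows (27%), against 386 of 9034 windows of listed genes (4.27%) and 626 of 27025 windows in all (2.32%). The 10 members with them were Xrcc6, Msh6, Bard1, Brca2, Rad51c, Fancg, Chek2, Mdc1, Topbp1 and Msh3, of which 4 had a log2 fold change above 0 and 6 below. The CCAAT box was in 62.2% of member windows and 39.3% of those of listed genes, the GC box in 70.3% and 66.3%, the E-box in 5.41% and 10.3%, and the NRF1 motif in 2.7% and 2.19%. A match describes letters in the window and shows no binding.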

How the data were processed

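RNA-seq values of 6 libraries (KD and PLKO, 3 each) were analysed. The authors deposited log2 FPKM of 11866 genes. GRCm38 and FastQC 0.11.7 are named, per the submitters' processing notes. Not given in the sources used here: aligner, counter, use of strand and gene filter. Whole reads were recovered for 100% of genes (tolerance 0.01 reads) from the steps of the deposited values, which hold a prior of 2 reads, so fold changes of low genes are understated. The exonic length of GENCODE M21 gave whole reads for 11190 genes, and for the other 676, Rbbp8 and Msh6 among them, the shortest length that did so was searched for, so that their reads are less certain. The reads give depth and enter alternatives only.

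limma 3.58.1 (R 4.3.3, mean-variance trend, group alone) was run on the deposited log2 values of 10770 genes, after a test on simulated data. Equal replicate numbers were taken to pair libraries because deviations from group means correlated at 0.18, 0.29 and 0.50, all over 0.1; this comes from the data, not a label, and PLKO 1 with KD 2 reached 0.27 and PLKO 2 with KD 1 0.30. Members and lists were chosen with earlier results of these data known. Full values are given for members called with or without the block and for the largest fold change of each role; from other lists, for called genes and up to 3 with the lowest adjusted p, and genes beyond these, such as Dna2, were chosen after their values were seen. The 17 alternatives were replicate block, left-out libraries, pseudocount, filters, scaling, weights, no trend and voom. Results for some other genes of these pathways are not reported here.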

Additional observations from a re-analysis of the deposited data

How the results depend on the processing

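Of 14 members given in full, the log2 fold change kept its sign in each of the 17 alternatives that tested the gene. Those members were picked for a call or a large fold change in the same libraries, which favours a kept sign. Among members not picked the sign could change, as for Brip1 (-0.52 to 0.24) and Rad50 (-0.40 to 0.23) over the alternatives. With the replicate block 9 members, 24 other pathway genes, 17 genes of the S phase and p53 lists and 2080 genes of the table were called, against 1, 3, 2 and 314 with the group alone, and the block changed no other call of the members. Without both libraries numbered 3 the counts were 14, 29, 18 and 3009. Array weights gave 31, 61, 32 and 6030 and moved the members' median log2 fold change to -0.47, but their estimate did not converge and gave KD 3, PLKO 2 and PLKO 3 weights of 0.214, 0.340 and 0.306 against 44.7 for KD 2. Without the mean-variance trend the counts were 0, 1, 1 and 151, with 14 members at an unadjusted p under 0.05 by limma (31.1%, beside 27.1% of all tested genes), and a mean FPKM of at least 5 left 1 gene of the S phase and p53 lists. With one library left out the counts ran from 0 to 10, 0 to 17, 0 to 14 and 0 to 1744, the members' median from -0.32 to -0.04, and Sf3b3 from -1.43 to -1.15, called only without KD 3 or PLKO 3. The cause of these shifts was not tested. Quantile normalization, library centring, log2(FPKM + 1), no filter, the filter at 5 FPKM and both voom fits each called Xrcc6 alone among the members. With 3 libraries a group and these spreads, differences such as that of Palb2 (interval -0.80 to 2.49) cannot be resolved.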

Other observations

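Targets of p53, the factor that ATM and CHEK2 activate, were described as a list of 18 tested genes, of which 10 were above 0, with a median log2 fold change of 0.18. Mdm2, the ubiquitin ligase that degrades p53, was the 1 called, at 35.7, 29.1 and 28.2 FPKM in KD, against 15.2, 15.3 and 16.5 FPKM in PLKO (log2 fold change 0.98, limma adjusted p = 0.043). Every KD library lay above every PLKO library. Of all tested genes 2.92% were called. Cdkn1a, the inhibitor of cyclin-dependent kinases, had 13.5, 14.5 and 7.07 FPKM in KD, against 8.35, 7.02 and 2.88 FPKM in PLKO, with overlap (log2 fold change 1.01, limma adjusted p = 0.17, and 0.012 with the replicate block). Btg2 stood at 0.60 on the log2 scale (limma adjusted p = 0.093) and Ercc5 at -0.94 (0.11, and 0.046 with the block). Sesn2 went down as well, by -0.92 with overlapping groups (limma adjusted p = 0.12, blocked 0.015). Blocking thus called 2 of the list higher, Mdm2 and Cdkn1a, and 2 lower, Ercc5 and Sesn2. Their share was 22.2%, beside 19.3% of all tested genes. Ccng1 was lower in every KD library (log2 fold change -0.42) but was called in neither fit.

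KD 1 held the highest KD value for 23 of the 46 members, KD 3 for 18 and KD 2 for 5, and PLKO 1 held the highest PLKO value for 33, PLKO 2 for 10 and PLKO 3 for 3. The lowest KD value was that of KD 3 for 22 members, of KD 2 for 18 and of KD 1 for 6, and the lowest PLKO value that of PLKO 2 and PLKO 3 for 22 each and of PLKO 1 for 2.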
